A study of Mus musculus with 6 samples.

Results

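The 10 genes described here encode regulators of the BCL2 family, which decide whether the mitochondrial outer membrane is opened during apoptosis. They were taken by gene symbol: 3 genes for pro-survival proteins (*Bcl2*, *Bcl2l1* and *Mcl1*), 2 for the pore-forming effectors (*Bax* and *Bak1*) and 5 for BH3-only proteins (*Bcl2l11*, *Bid*, *Bad*, *Bik* and *Pmaip1*). All 10 were found among the 22380 gene identifiers that each library lists. RNA was measured by Smart-Seq2 in 6 mouse embryonic stem cell (mESC) lines, of which 3 were *Ctrl* and 3 *Tet iTKO*, and no embryo gave more than 1 line. Lines of both groups carried CreERT2, a Cre recombinase that tamoxifen activates, and a Gt(ROSA)26Sor reporter, each as wt/ki. *Tet iTKO* lines carried in addition the floxed alleles Tet1/2/3 fl/fl, which *Ctrl* lines lacked. Every line was grown in 2i medium on mouse embryonic fibroblast feeders, given 1 µM 4-hydroxytamoxifen for 2.5 days and kept for 4 more days. Cells were thus collected at day 6.5. The compound is named as in the paper, where the sample labels say tamoxifen. Live cells that were CD326+ and GFP+ and lacked Thy1.2, a surface marker of feeder fibroblasts, were sorted. The paper's accounts of this sort differ. A figure legend adds SSEA1+, and the methods for these libraries name neither SSEA1 nor CD326. The study asked which genes depend on the TET dioxygenases and might bear on chromosome segregation.

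Proteins of the BCL2 family meet at the mitochondrial outer membrane. Pro-survival members such as BCL-XL (*Bcl2l1*) and MCL1 hold the effectors BAX and BAK in check, BH3-only proteins bind the pro-survival members or activate the effectors directly, and active BAX and BAK form pores through which cytochrome c leaves the mitochondrion and starts the caspase cascade. Embryonic stem cells are known for a low threshold to apoptosis. TET enzymes oxidise 5-methylcytosine, which in mammals lies mostly in the dinucleotide CG.

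Because CG is the dinucleotide TET enzymes act on, the sequences before the start of 4 members are shown, from RefSeq with the build GRCm38.p6. *Bax* and *Bid* are the members that fell, and *Mcl1* and *Bcl2* are the pro-survival genes with the highest and the lowest level per kb of transcript. Each sequence is the stretch of up to 250 bases before the annotated start, read 5′ to 3′ on the gene's strand, with exonic bases of the GENCODE M21 annotation left out and every CG in capitals. They lie at chr7:45466899-45467148 (minus strand) for *Bax*, chr6:120916854-120917074 (minus strand) for *Bid*, chr3:95658471-95658720 (plus strand) for *Mcl1* and chr1:106714291-106714540 (minus strand) for *Bcl2*.
Bax: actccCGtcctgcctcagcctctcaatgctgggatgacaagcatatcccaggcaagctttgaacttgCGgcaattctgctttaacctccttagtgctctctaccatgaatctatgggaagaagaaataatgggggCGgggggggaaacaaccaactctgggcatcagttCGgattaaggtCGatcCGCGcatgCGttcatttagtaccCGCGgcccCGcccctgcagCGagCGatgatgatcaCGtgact
Bid: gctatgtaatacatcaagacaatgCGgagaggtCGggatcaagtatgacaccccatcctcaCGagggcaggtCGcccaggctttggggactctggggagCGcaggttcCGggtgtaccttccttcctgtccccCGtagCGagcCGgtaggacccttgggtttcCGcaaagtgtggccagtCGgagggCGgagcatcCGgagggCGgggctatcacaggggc
Mcl1: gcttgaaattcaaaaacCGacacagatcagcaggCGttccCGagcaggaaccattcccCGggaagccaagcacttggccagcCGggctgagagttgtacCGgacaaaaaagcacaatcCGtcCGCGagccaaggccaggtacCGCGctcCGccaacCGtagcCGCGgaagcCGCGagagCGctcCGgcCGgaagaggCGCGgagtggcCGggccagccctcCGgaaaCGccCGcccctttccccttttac
Bcl2: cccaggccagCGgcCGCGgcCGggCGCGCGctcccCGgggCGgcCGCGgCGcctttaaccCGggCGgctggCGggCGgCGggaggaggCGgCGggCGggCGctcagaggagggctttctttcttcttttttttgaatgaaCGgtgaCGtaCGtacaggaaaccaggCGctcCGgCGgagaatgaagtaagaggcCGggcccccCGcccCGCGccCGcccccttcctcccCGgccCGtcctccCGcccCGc

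The *Bax* stretch held 14 CG in 250 bases and the *Bid* stretch 14 in 221 bases, or 18 in its whole window of 250 bases. The *Mcl1* stretch held 26 and the *Bcl2* stretch 36. Over 32851 windows of 250 bases before RefSeq starts the median was 6 CG (interquartile range 2 to 16), which put *Bax* at percentile 70.6, *Bid* at 78.3, *Mcl1* at 90.4 and *Bcl2* at 97.4. The RefSeq windows looked at cover 8 of the 10 members, with 12 windows in all, since *Bcl2l1*, *Bcl2l11* and *Bad* have several starts. *Bik* and *Pmaip1* are not covered. The search for the members' windows did not take in every chromosome, so a member without a window here may still have a RefSeq start. The window of *Bak1*, a member that rose, held 8 CG (percentile 57), and it lies in an annotated exon and is not printed. The letters GGGCGG, counted on both strands and sharing their CG with the count above, occurred 2 times before *Bax*, 3 times in the window of *Bid*, 1 time before *Mcl1* and 7 times before *Bcl2*, and 32.7% of all windows held them at least 1 time. The letters CACGTG, which also hold a CG, occurred 1 time before *Bax* and in 6% of all windows. Methylation was not measured in these files, and such matches describe sequence alone.

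The values are read counts per gene that the authors divided by a size factor for each library and rounded, called normalized counts below. They summed to between 3964824 and 4219665 per library, lower in each *Tet iTKO* library than in any *Ctrl* library, while 13431 to 13539 genes were above 0 in *Ctrl* and 14024 to 14363 in *Tet iTKO*. On a log2 scale libraries correlated across genes at 0.9735 to 0.9778 within groups and 0.9387 to 0.9472 between them, and no library was a copy of another. Over the whole gene, *Tet1* stood at 696, 682 and 716 normalized counts in *Ctrl* lines against 787, 895 and 753 in *Tet iTKO* lines, *Tet2* had 249, 170 and 230 against 233, 268 and 211, and *Tet3* had 28, 13 and 13 against 10, 3 and 3. Values for whole genes cannot show the floxed exons, so they do not check the deletion. The 7 stem cell markers, led by *Pou5f1*, summed to 10154 to 10618 in *Ctrl* and 9367 to 9757 in *Tet iTKO*. Of these *Pou5f1*, *Nanog* and *Zfp42* fell (log2 fold changes of -0.29, -0.30 and -0.35), *Esrrb* and *Epcam* rose (0.29 and 0.45), *Sox2* did not pass the test, and *Fut4* was at 2 or less in every library. *Epcam* encodes CD326, which is among the markers of the sort. The 8 feeder fibroblast markers summed to 272 to 292 in *Ctrl* and 472 to 555 in *Tet iTKO*. Of these, the 3 collagens *Col1a1*, *Col1a2* and *Col3a1* rose, *Thy1* did not pass the test, and *Dcn*, *Lum*, *Pdgfra* and *Twist2* were too low to test. Markers of 2-cell-like cells, 5 of which are in the files, summed to 9 to 24 in *Ctrl* and 142 to 166 in *Tet iTKO*. *Zscan4c*, *Zscan4d*, *Zscan4f* and *Usp17la* had the higher values, while *Zfp352* was at 2 or less in every library. The 6 primitive endoderm markers, nearly all of whose sum was *Sparc*, summed to 1894 to 1984 against 1360 to 1420, while *Gata4* on the same list rose (2, 7 and 10 against 21, 12 and 27). *Gata4* reached the mean of 10 asked for the test only through its *Tet iTKO* values (mean 20, against 6.3 in *Ctrl*). The 6 trophoblast markers, mostly *Tfap2c*, summed to 698 to 772 against 621 to 647, while *Eomes* was at 10, 27 and 23 against 31, 36 and 35 and did not pass the test. These sums moved with the same groups as every difference below, and their part in the results was not tested.

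In *Tet iTKO* mESC *Bak1* and *Pmaip1* rose, *Bax* and *Bid* fell, and the pro-survival genes *Mcl1* and *Bcl2l1* gave no called difference. With limma and Benjamini-Hochberg adjustment over the 10524 genes with a mean of at least 10 normalized counts, 4 of the 9 members tested had an adjusted p under 0.05, 2 higher and 2 lower. Of all genes tested 34.8% passed, 16.4% higher and 18.4% lower. The share was 43.8% among the 6160 genes with a mean of at least 100, where all 4 of these members lie, and 22.2% among the 4364 genes below it. Of the members tested, *Bik* and *Bcl2l11* lie below it and the others do not. In 5 members the 3 *Ctrl* and 3 *Tet iTKO* values did not overlap, and 44.1% of all genes tested showed the same. The median log2 fold change was -0.04 over the 9 members and 0.01 over all genes tested. No member reached a log2 fold change of 1 in size with an adjusted p under 0.05, which 6.25% of all genes did. In RNA from bulk cells, a change in the amount per cell cannot be told apart from a change in which cells make up the sorted population.

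**Figure D1:**
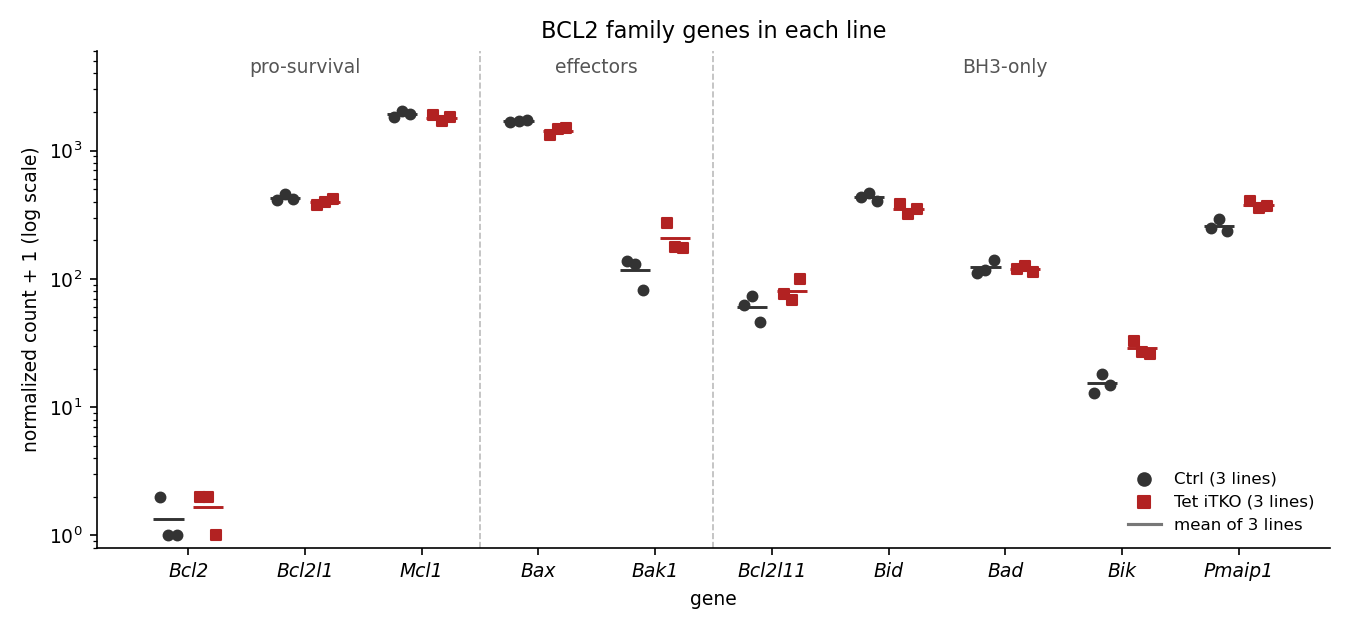
Normalized counts plus 1 of the 10 members (log scale), with a point for each of the 3 Ctrl lines (circles) and 3 Tet iTKO lines (squares) and a short line at each group's mean. The groups stand apart for Bax, Bak1, Bid, Bik and Pmaip1 and overlap for the others, and Bcl2 is at 0 or 1 in every line.

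Of the pro-survival genes, *Mcl1* (ENSMUSG00000038612.9) encodes a short-lived protein that binds BAK and several BH3-only proteins. The *Ctrl* lines held 1819, 2046 and 1934 normalized counts of it, and the *Tet iTKO* lines 1899, 1697 and 1819. The ranges overlapped, the *Ctrl* mean being 1933 ± 114 (SD, n = 3) and the *Tet iTKO* mean 1805 ± 102 (SD, n = 3). On the scale of log2(normalized count + 1), which understates the change of low genes, the log2 fold change was -0.10 (SE, the standard error, 0.06, 95% confidence interval -0.22 to 0.02, adjusted p = 0.19 by limma). Its sign turned to 0.02 when libraries were rescaled to a common upper quartile or quantile normalized.

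*Bcl2l1* (ENSMUSG00000007659.11), the gene of BCL-XL, stood at 411, 458 and 420 normalized counts in *Ctrl* lines against 376, 394 and 416 in *Tet iTKO* lines. Here too the groups overlapped, since *Tet iTKO* line 3 exceeded *Ctrl* line 1. On the log2 scale the difference was -0.12 (SE 0.09, 95% confidence interval -0.31 to 0.07, adjusted p = 0.34 by limma). It was -0.22 with a correction for GC content and length (adjusted p = 0.064 by limma). With libraries rescaled to a common total it was -0.03 (adjusted p = 0.8 by limma), and no alternative setting called it. *Bcl2* (ENSMUSG00000057329.6), the founding member of the family, stood at 1, 0 and 0 normalized counts in *Ctrl* lines against 1, 1 and 0 in *Tet iTKO* lines. Each of these is under 3, the smallest value taken as detectable here, so no fold is given and a difference was not detectable.

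The effectors moved in opposite directions. *Bax* (ENSMUSG00000003873.9), whose product moves from the cytosol to mitochondria when activated, stood at 1675, 1704 and 1739 normalized counts in *Ctrl* lines against 1332, 1460 and 1491 in *Tet iTKO* lines. Every *Tet iTKO* line was below every *Ctrl* line, and the mean of 1427.7 ± 84.3 (SD, n = 3) was 83.7% of the *Ctrl* mean of 1706 ± 32 (SD, n = 3). This is a log2 fold change of -0.26 (SE 0.06, 95% confidence interval -0.38 to -0.14, adjusted p = 0.00067 by limma). With upper-quartile rescaling, which moves the median of all genes up by 0.12, it was -0.14 (adjusted p = 0.07 by limma), or -0.27 relative to that median. Without the trend of variance on expression the limma adjusted p was 0.075.

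*Bak1* (ENSMUSG00000057789.6), whose product resides in the outer membrane, stood at 136, 129 and 81 normalized counts in *Ctrl* lines against 270, 177 and 174 in *Tet iTKO* lines. All 3 *Tet iTKO* values lay above the *Ctrl* values, with *Ctrl* line 3 the lowest and *Tet iTKO* line 1 the highest by a wide margin. The mean of 207 ± 54.6 (SD, n = 3) was 1.79-fold that of *Ctrl*, 115.3 ± 29.9 (SD, n = 3), and the log2 fold change came to 0.84 (SE 0.18, 95% confidence interval 0.49 to 1.20, adjusted p = 0.00024 by limma). Without *Tet iTKO* line 1 it was 0.64 and without *Ctrl* line 3 it was 0.61, with adjusted p-values from limma of 0.015 and 0.0041. Without the variance trend the limma adjusted p was 0.073. *Bak1* shares 437 of its 2407 exonic bases with *Ggnbp1* on the opposite strand. Smart-Seq2 keeps no strand, so their reads cannot be told apart there, and *Ggnbp1* itself was listed at 9, 26 and 5 in *Ctrl* and 16, 14 and 14 in *Tet iTKO* lines.

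The ratio of *Bax* to *Bak1* normalized counts, taken within each library and not corrected for length, was 12.32, 13.21 and 21.47 in *Ctrl* and 4.93, 8.25 and 8.57 in *Tet iTKO* lines. No *Tet iTKO* ratio reached the *Ctrl* range, and the means were 15.66 ± 5.05 (SD, n = 3) and 7.25 ± 2.01 (SD, n = 3). This is a description of the 2 changes above and was not tested apart from them.

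**Figure D2:**
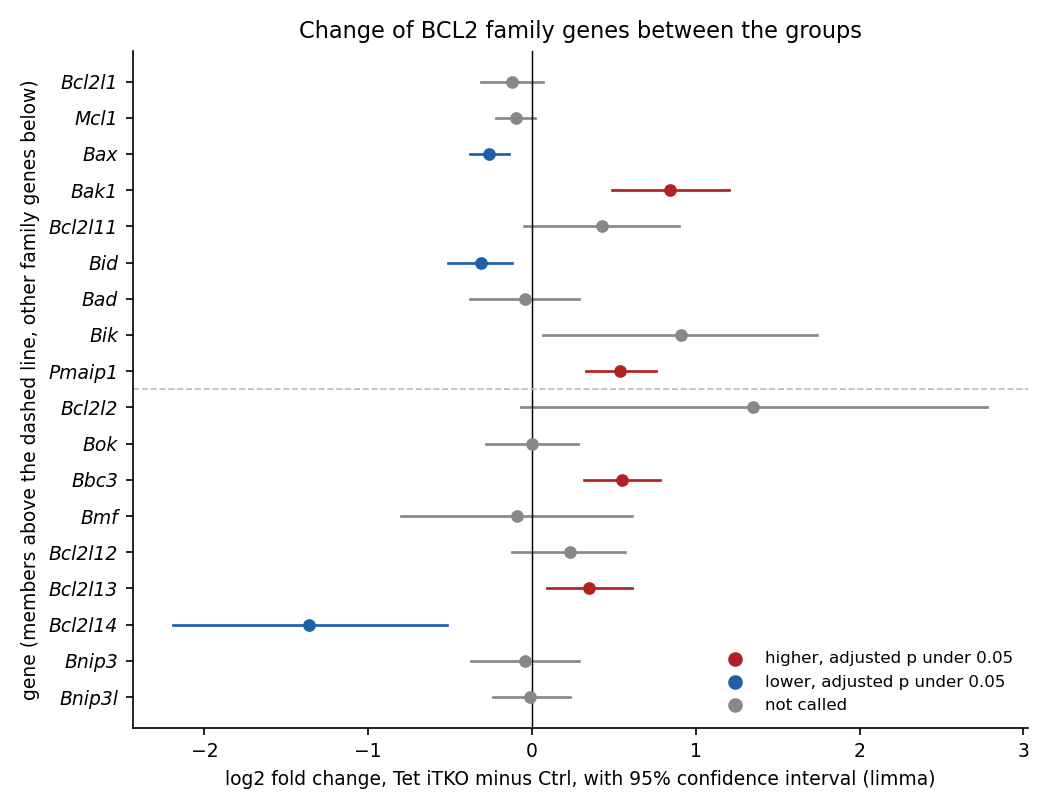
Log2 fold change between Tet iTKO and Ctrl with its 95% confidence interval from limma for the 9 members tested (above the dashed line) and 9 other BCL2 family genes tested (below). Among members Bak1 and Pmaip1 are called higher and Bax and Bid lower, and among the other genes Bbc3 and Bcl2l13 are called higher and Bcl2l14 lower.

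Among the BH3-only genes *Pmaip1* rose and *Bid* fell, while *Bik*, *Bcl2l11* and *Bad* did not pass the test. *Pmaip1* (ENSMUSG00000024521.7) encodes NOXA, which binds MCL1 and promotes its degradation. It stood at 246, 292 and 233 normalized counts in *Ctrl* lines against 402, 354 and 366 in *Tet iTKO* lines, a gap of more than the range within either group. The mean rose 1.46-fold, from 257 ± 31 (SD, n = 3) to 374 ± 25 (SD, n = 3). That corresponds to a log2 fold change of 0.54 (SE 0.11, 95% confidence interval 0.33 to 0.76, adjusted p = 0.00013 by limma). The call held under all 17 alternatives, with log2 fold changes from 0.48 to 0.76. In normalized counts uncorrected for length, *Pmaip1* was 0.14, 0.14 and 0.12 of *Mcl1* in *Ctrl* lines against 0.21, 0.21 and 0.20 of it in *Tet iTKO* lines.

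*Bid* (ENSMUSG00000004446.6) encodes a protein that caspase-8 cleaves into an active fragment, linking death receptors to mitochondria. It stood at 433, 467 and 405 normalized counts in *Ctrl* lines against 380, 322 and 350 in *Tet iTKO* lines. The groups did not overlap, and the mean of 350.7 ± 29 (SD, n = 3) was 80.6% of the *Ctrl* mean of 435 ± 31 (SD, n = 3). Its log2 fold change was -0.31 (SE 0.10, 95% confidence interval -0.51 to -0.12, adjusted p = 0.011 by limma). This call was lost under 7 of the 17 alternatives, among them without *Ctrl* line 2 (-0.26, adjusted p = 0.073 by limma), without *Tet iTKO* line 2 (-0.25, adjusted p = 0.079 by limma) and with a correction for GC content and length (-0.24, adjusted p = 0.055 by limma). *Bid* shares 628 of its 3550 exonic bases with *Bcl2l13* on the opposite strand, a family gene that had higher values in *Tet iTKO* lines and is described below.

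*Bik* (ENSMUSG00000016758.3), which encodes a BH3-only protein of the endoplasmic reticulum, stood at 12, 17 and 14 normalized counts in *Ctrl* lines against 32, 26 and 25 in *Tet iTKO* lines. Its groups did not overlap, but at means of 14.3 ± 2.52 (SD, n = 3) and 27.7 ± 3.79 (SD, n = 3) it is at percentile 10.4 of the genes tested. The log2 fold change of 0.91 had an SE of 0.41 and a 95% confidence interval of 0.07 to 1.74, and did not pass the adjustment (adjusted p = 0.086 by limma). Without the variance trend it passed (adjusted p = 0.017 by limma), as it did, barely, with upper-quartile rescaling (log2 fold change 1.02, adjusted p under the threshold but rounding to 0.05 by limma).

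*Bcl2l11* (ENSMUSG00000027381.10) encodes BIM, which binds all pro-survival members. It stood at 61, 73 and 45 normalized counts in *Ctrl* lines against 75, 67 and 98 in *Tet iTKO* lines, overlapping through *Ctrl* line 2 and *Tet iTKO* line 2. Their log2 difference was 0.43 (SE 0.23, 95% confidence interval -0.05 to 0.90, adjusted p = 0.16 by limma). *Bad* (ENSMUSG00000024959.7) encodes a protein that growth factor signalling keeps phosphorylated and bound to 14-3-3 proteins. It had 111, 117 and 140 against 118, 125 and 113 normalized counts, the *Tet iTKO* values lying within the *Ctrl* range. The log2 fold change was -0.04 with an SE of 0.17 (95% confidence interval -0.38 to 0.29, adjusted p = 0.88 by limma), and *Bad* shares 524 of its 2558 exonic bases with *Gpr137* on the opposite strand.

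**Figure D3:**
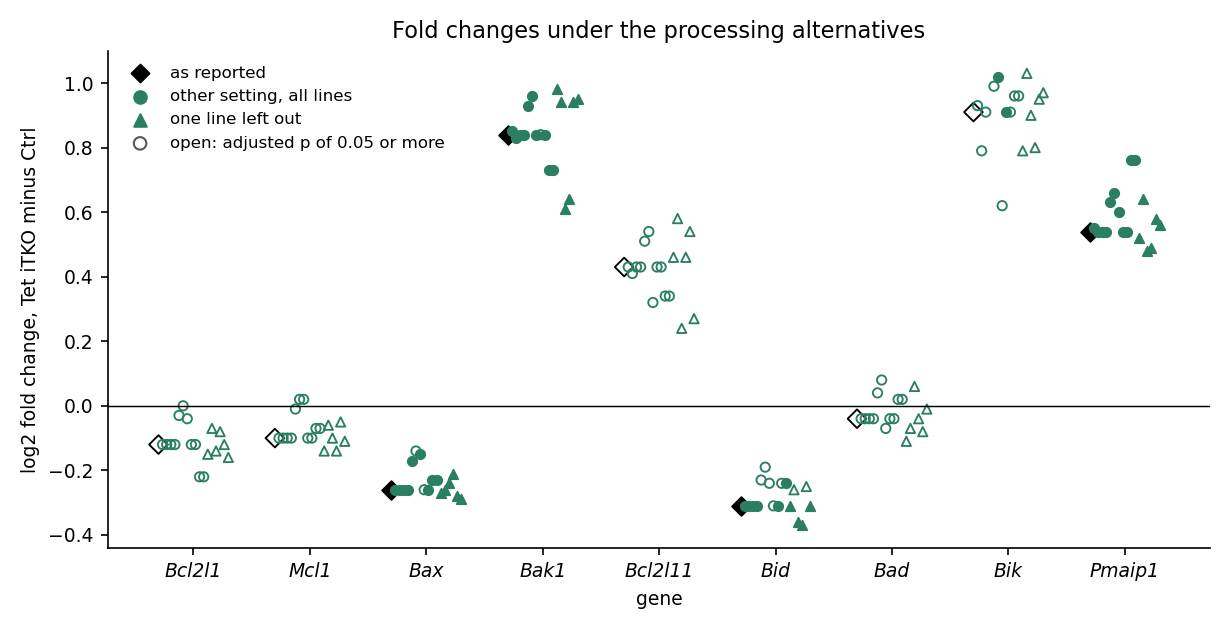
Log2 fold changes of the 9 members tested as reported (diamonds), under 11 other settings with all lines (10 for Bik, circles) and in 6 fits that each leave out a line (triangles), with open symbols where the adjusted p was 0.05 or more. Pmaip1 is filled throughout, Bak1 and Bax nearly so, Bid is open in 7 of its alternatives, and Mcl1 and Bad cross 0.

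Levels of different genes were compared as normalized counts per kb of the longest annotated transcript. In *Ctrl* lines *Bax* was the most abundant member at 1550 ± 29.1 (SD, n = 3), followed by *Mcl1* at 566 ± 33.2 (SD, n = 3). *Bid* at 180 ± 12.9 (SD, n = 3) and *Bcl2l1* at 167 ± 9.71 (SD, n = 3) came next, and their lines overlapped with this length. Lines also overlapped between *Pmaip1* at 94.2 ± 11.4 (SD, n = 3) and *Bad* at 80 ± 9.99 (SD, n = 3). *Bak1* followed at 48.3 ± 12.5 (SD, n = 3). *Bcl2l11* at 11.8 ± 2.79 (SD, n = 3) and *Bik* at 10.7 ± 1.89 (SD, n = 3) were not apart beyond their spread with this length, and *Bcl2* was last at 0.0464, which rests on a single normalized count. The pro-survival genes thus differed widely in level, with *Mcl1* above *Bcl2l1* in every line and *Bcl2* near 0.

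In *Tet iTKO* lines the same scale gave 1300 ± 76.6 (SD, n = 3) for *Bax* and 528 ± 29.8 (SD, n = 3) for *Mcl1*. The levels of *Bcl2l1*, *Bid* and *Pmaip1* were 154 ± 7.8, 145 ± 12 and 137 ± 9.16 (SD, n = 3 each), and with this length their ranges over lines, from 130 to 162, overlapped. *Bak1* at 86.7 ± 22.9 (SD, n = 3) stood level with *Bad* at 77.4 ± 3.93 (SD, n = 3), whose lines lay within its range. *Bik* at 20.7 ± 2.84 (SD, n = 3) and *Bcl2l11* at 15.9 ± 3.2 (SD, n = 3) overlapped as well. The distances between members depended on the transcript taken. With the median transcript length in place of the longest, 8 of the 10 members kept their place in the *Ctrl* order, with *Bad* and *Pmaip1* changing places, but only 4 kept it in the *Tet iTKO* order. *Bid*, whose median transcript has 563 bases beside 2415 for the longest, then stood at 773 ± 55.1 (SD, n = 3) per kb in *Ctrl* lines against 623 ± 51.5 (SD, n = 3) per kb for *Tet iTKO*. Its lines did not overlap with those of *Bcl2l1*, at 306 ± 17.8 (SD, n = 3) and 282 ± 14.3 (SD, n = 3), in either group, and in *Tet iTKO* lines *Pmaip1* at 148 ± 9.86 (SD, n = 3) lay below both. In *Ctrl* lines *Bcl2l11* at 30.5 ± 7.18 (SD, n = 3) then lay above *Bik* at 18 ± 3.16 (SD, n = 3) without overlap. *Bax* and *Mcl1* led under both lengths. Which transcripts these cells use was not tested.

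**Figure D4:**
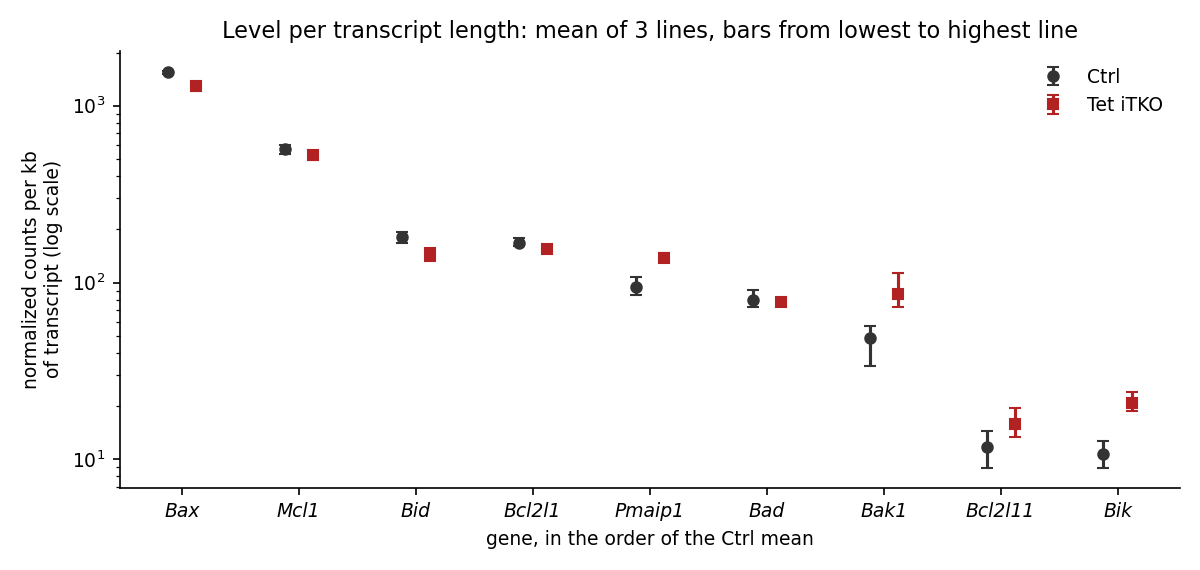
Normalized counts per kb of the longest annotated transcript (log scale) for 9 members in the order of their Ctrl mean, leaving out Bcl2, with points at the mean of 3 lines and bars from the lowest to the highest line. Bax and Mcl1 lead in both groups, and in Tet iTKO lines Bid, Bcl2l1 and Pmaip1 overlap, which they do not with the median transcript length.

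Of 15 further BCL2 family genes listed, 13 are in the files and 9 were tested, with 2 higher, 1 lower and 6 not called, or 33.3% called beside 34.8% of all genes. *Bbc3* encodes PUMA, a BH3-only protein that, like NOXA, is a classical product of p53 activation. It stood at 202, 251 and 241 normalized counts in *Ctrl* lines against 355, 337 and 321 in *Tet iTKO* lines. The *Tet iTKO* lines all lay above the *Ctrl* lines, with a log2 fold change of 0.55 (SE 0.11, adjusted p = 0.00018 by limma) that passed under all 17 alternatives and was 0.33 with the correction for GC content and length.

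*Bcl2l13* encodes a mitochondrial protein with BH domains that serves as a mitophagy receptor. It had 192, 246 and 302 against 285, 349 and 299 normalized counts, groups that overlapped, and a log2 fold change of 0.35 (SE 0.13, adjusted p = 0.029 by limma). The call was lost under 8 of 17 alternatives, with values of 0.18 to 0.51 in fits without a line and a loss of the call without *Ctrl* line 1, *Ctrl* line 2, *Tet iTKO* line 2 or *Tet iTKO* line 3. With the correction for GC content and length it was 0.14 (adjusted p = 0.44 by limma). *Bcl2l14*, a family gene of less settled function, had 48, 30 and 26 against 11, 16 and 11 normalized counts. Its log2 fold change was -1.36 (SE 0.41, adjusted p = 0.0096 by limma), and without *Ctrl* line 1, which had the highest value, it was -1.10 (adjusted p = 0.08 by limma).

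*Bok*, an effector-like gene, had 162, 169 and 217 against 179, 181 and 185 normalized counts and a log2 fold change of 0.00 (95% confidence interval -0.28 to 0.28, adjusted p = 0.99 by limma). The BH3-only gene *Bmf* had 20, 47 and 38 against 37, 33 and 24 normalized counts. *Bcl2l12* had 117, 89 and 130 against 125, 127 and 137, and it shares exonic bases with *Irf3* on the opposite strand. Neither passed the test, with limma adjusted p-values of 0.87 and 0.33. *Bnip3* and *Bnip3l*, mitophagy receptors with a BH3-like stretch, lay at -0.04 and -0.01 on the log2 scale of change (adjusted p = 0.88 and 0.97 by limma), and their groups overlapped. *Bcl2l2*, the gene of the pro-survival protein BCL-W, had 1, 6 and 11 against 12, 26 and 7 normalized counts, and its log2 fold change of 1.35 had an interval from -0.07 to 2.78 (adjusted p = 0.13 by limma) and was 0.62 without *Ctrl* line 1, which had the lowest value. It reached the mean of 10 asked for the test only through its *Tet iTKO* values (mean 15, against 6 in *Ctrl*). Too low to test were *Hrk* (1, 1 and 8 against 8, 12 and 17), *Bcl2l10* (0, 2 and 7 against 8, 2 and 1), *Bcl2l15* (2 or less in every line) and *Bcl2a1b* (0 in every line). *Bcl2a1b* belongs to a cluster of near-identical copies, whose shared reads unique alignment leaves out, and *Bcl2a1a* and *Bcl2a1d* were not analysed here.

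Of 42 genes in 5 lists of the surrounding apoptosis pathway, 39 were tested, with 6 higher, 6 lower and 27 not called. That is 30.8% called beside 34.8% of all genes, with a median log2 fold change of 0.06 beside 0.01.

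Downstream of the pore, the list of apoptosome and caspase genes had 1 higher, 1 lower and 8 not called of 10 tested. The called share was 20%, beside 34.8% of all genes tested. *Cycs*, the gene of cytochrome c, stood at 362, 306 and 312 normalized counts in *Ctrl* lines against 212, 235 and 221 in *Tet iTKO* lines. It fell by 0.55 on the log2 scale (SE 0.11, adjusted p = 0.00018 by limma) with groups well apart, and by 0.35 with the correction for GC content and length. *Cycs* has processed copies elsewhere in the mouse genome, so reads that match several places were left out of its value. *Casp8*, the initiator caspase of death receptors whose protein cleaves BID, had 7, 5 and 1 against 25, 19 and 33 normalized counts. Its log2 fold change of 2.51 (SE 0.61, adjusted p = 0.0013 by limma) rests on these low *Ctrl* values, and fits without a line gave 1.91 to 2.91. *Casp8* passed the filter, a mean of 10 over all lines, only through its *Tet iTKO* values (mean 25.7, against 4.3 in *Ctrl*). With no filter beyond a mean above 0 its adjusted p was 0.015 by limma.

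Of 8 tested genes for factors released from mitochondria and inhibitor of apoptosis proteins, 0 were called higher, 3 lower and 5 not called. The share called was 37.5%, beside 34.8% of all genes tested, where 16.4% were higher and 18.4% lower. In the direction with 0 calls, *Aifm1* had an unadjusted limma p of 0.037 (log2 fold change 0.23, adjusted p = 0.09). *Birc5*, the gene of survivin, which also works in the chromosomal passenger complex at mitosis, stood at 1638, 1663 and 1659 normalized counts in *Ctrl* lines against 1214, 1262 and 1246 in *Tet iTKO* lines. It fell by 0.41 on the log2 scale (SE 0.06, adjusted p = 5.2e-07 by limma), far beyond the spread within either group. *Endog*, a mitochondrial nuclease gene, had 145, 131 and 149 against 102, 98 and 101 normalized counts (log2 fold change -0.49, adjusted p = 0.018 by limma). It shares 379 of its 1063 exonic bases with *Spout1* on the opposite strand, and its call was lost without *Ctrl* line 3 or *Tet iTKO* line 2, with values from -0.55 to -0.45 over such fits. *Diablo*, whose protein blocks inhibitors of apoptosis, had 509, 515 and 527 against 442, 435 and 429 normalized counts (log2 fold change -0.25, adjusted p = 0.022 by limma). Its values without a line ran from -0.26 to -0.23, and its call was lost without *Ctrl* line 3, *Tet iTKO* line 2 or *Tet iTKO* line 3 and under 7 of 17 alternatives in all.

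In the death receptor list 5 of 7 genes were tested, with 1 higher and 0 lower, or 20% called beside 34.8% of all genes. *Tradd*, an adaptor of the TNF receptor, had 27, 40 and 25 against 53, 57 and 57 normalized counts, with a log2 fold change of 0.87 (SE 0.29, adjusted p = 0.019 by limma). Its values were 0.74 to 1.07 when each line was left out, and the call was lost without *Ctrl* line 3, *Tet iTKO* line 2 or *Tet iTKO* line 3. None of the other 4 tested genes of the list had an unadjusted limma p under 0.05, and *Fas* and *Cflar* were too low to test.

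Of 6 genes for proteins of the mitochondrial membranes that BCL2 proteins act on or with, 2 fell and 4 were not called. Those called made up 33.3%, beside 34.8% of all genes tested, where 18.4% were lower. *Mtch2*, whose protein is a docking site for the cleaved form of BID, stood at 2128, 2236 and 2042 normalized counts in *Ctrl* lines against 1543, 1515 and 1533 in *Tet iTKO* lines. This fall of 0.48 on the log2 scale (SE 0.06, adjusted p = 1e-08 by limma) had the smallest adjusted p among these lists, and was 0.30 with the correction for GC content and length. *Vdac3*, a channel of the outer membrane, had 1233, 1207 and 1200 against 1096, 1018 and 1043 normalized counts (log2 fold change -0.21, adjusted p = 0.01 by limma), and its call was lost under 7 of 17 alternatives, 1 of them without *Tet iTKO* line 2 (-0.24 to -0.18 over the fits without a line), and with the correction for GC content and length it was -0.06 (adjusted p = 0.55 by limma).

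Of 10 regulators of BCL2 family mRNAs or proteins, 4 were called higher and 0 lower. This share of 40% called stands beside 34.8% of all genes tested, where 16.4% were higher and 18.4% lower. No gene of this list with a negative log2 fold change had an unadjusted limma p under 0.05. *Huwe1*, a ubiquitin ligase that targets MCL1, stood at 341, 338 and 306 normalized counts in *Ctrl* lines against 475, 498 and 488 in *Tet iTKO* lines. Its log2 fold change of 0.57 (SE 0.09, adjusted p = 7.1e-06 by limma) dropped to 0.20 with the correction for GC content and length (adjusted p = 0.12 by limma). The transcription factor gene *E2f1*, with 407, 357 and 392 against 476, 502 and 476, behaved alike, at 0.33 (SE 0.09, adjusted p = 0.0039 by limma) and 0.12 (adjusted p = 0.35 by limma) after that correction. *Trp53*, the gene of p53, which activates transcription of *Bax*, *Pmaip1* and *Bbc3*, had 3567, 3718 and 3738 against 3898, 4182 and 4072 normalized counts. Its log2 fold change was 0.14 (SE 0.05, adjusted p = 0.016 by limma), and this was no longer called under 6 of 17 alternatives, among them without *Ctrl* line 1, *Tet iTKO* line 2 or *Tet iTKO* line 3 (0.12 to 0.17 over the fits without a line). With the correction for GC content and length it was 0.05 (adjusted p = 0.43 by limma), so that 3 of the 4 higher calls of this list were lost under that correction. *Ywhaz*, which encodes a 14-3-3 protein that binds phosphorylated BAD, was at 0.16 (SE 0.06, adjusted p = 0.046 by limma) with overlapping groups. Its call was also lost under 6 of 17 alternatives, 4 of which left out *Ctrl* line 2, *Ctrl* line 3, *Tet iTKO* line 1 or *Tet iTKO* line 3 (0.12 to 0.21 over the fits without a line).

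**Figure D5:**
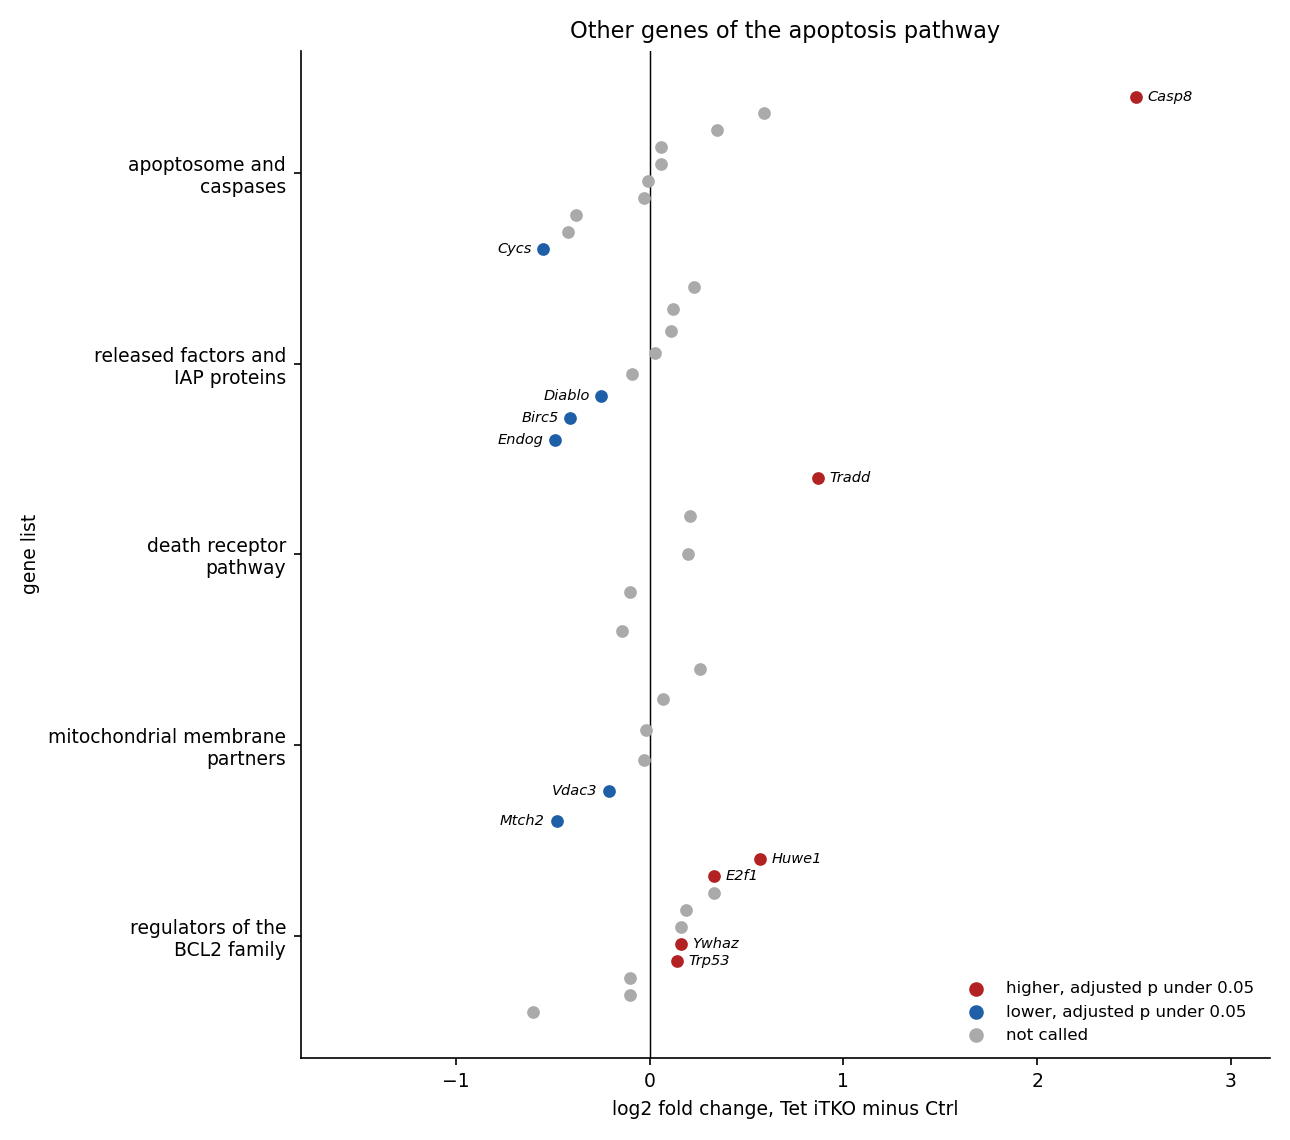
Log2 fold change of the 39 tested genes in 5 lists of the apoptosis pathway, each point a gene, red where called higher, blue where called lower and grey where not called. Called genes are named, 6 to the right of 0 and 6 to the left, with Casp8 at 2.51 farthest to the right and Cycs at -0.55 farthest to the left of the named genes. Casp8 reached the mean of 10 asked for the test only through its Tet iTKO values.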

How the data were processed

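RNA from sorted mESC, 3 *Ctrl* and 3 *Tet iTKO* lines each from a different embryo, had been made into Smart-Seq2 libraries and sequenced as pairs of 50-base reads. The authors kept unique STAR alignments, counted reads per gene with HTSeq 0.7.1 with the strand option on, and divided counts by DESeq2 1.26.0 size factors in R 3.5.2; the submitters' processing notes name the build mm9, and the annotation release is not given in the sources used here. The deposited unit is a score, the values being such normalized counts rounded to whole numbers, so no count model was run, and the reads per library were not recovered from them. No molecular identifiers were used, so PCR copies of a molecule cannot be told from separate molecules. Values under 3 were taken as not detectable.

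Identifiers were paired with symbols (20775 of 22380), transcript lengths, GC content and exon overlaps from GENCODE M21 on GRCm38. This build is other than mm9, so the only coordinates given are those of the printed RefSeq sequences, on GRCm38.p6. limma 3.58.1 in R 4.3.3 (lmFit, eBayes with trend) took log2(normalized count + 1) of every gene whose mean reached 10, without a covariate and adjusted by Benjamini-Hochberg, and genes with an adjusted p under 0.05 were called. The step was also run on simulated data, whose changes were set larger than those of the members called here. It therefore does not check calls of the members' size. Alternatives were pseudocounts of 0.5 and 4, no filter, a mean of at least 50, rescaling to a common total or upper quartile, quantile normalization, eBayes without trend, a block for the replicate number, loess correction (span 0.3) for GC content and length, both together, and leaving out each line. Named genes are the members, *Tet1*, *Tet2* and *Tet3*, the other family genes, at most 5 called genes of each other list, and markers that bear on the sort; *Aifm1*, *Fas* and *Cflar* were named after their values were seen. Members and lists were chosen with earlier results of these data known. An item of the lists is not reported here. Labels give no batch. Further tools were Python 3.11.15, pandas 2.3.3, NumPy 2.4.6 and matplotlib 3.10.9.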

Additional observations from a re-analysis of the deposited data

How the results depend on the processing

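Of the members' 4 calls, *Pmaip1* held under all 17 alternatives, *Bak1* under 16, *Bax* under 15 and *Bid* under 10. The number of members called higher was 3 with upper-quartile rescaling, through *Bik*, and 2 under each of the others, though without the trend *Bik* was called and *Bak1* was not. The number called lower was 1 rather than 2 with rescaling to a common total, quantile normalization or the GC and length correction, and 0 with upper-quartile rescaling or eBayes without the trend. It was 1 to 2 when each line was left out, 1 without *Ctrl* line 2 and without *Tet iTKO* line 2. Over the 6 apoptosis lists, with 8 higher and 7 lower, the numbers higher were 13 with a common total, 14 with a common upper quartile and 5 without the trend, and 4 to 7 without a line, the lowest without *Tet iTKO* line 3. The numbers lower were 4 with a common upper quartile, 5 without the trend and 5 to 7 without a line. Asking for a log2 fold change of 1 or more left 1 higher and 1 lower. Over all genes, 1731 were higher and 1934 lower. Without the trend these were 1075 and 1217, with a fold threshold 521 and 137, and with upper-quartile rescaling 2593 and 1242. Higher genes made up 47.2% of all calls, 61.9% with a common total and 67.6% with a common upper quartile, which moved the median of all genes by 0.08 and 0.12. Which scaling holds for these cells was not tested.

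Direction turned for genes near 0, none of them called on either side except *Tet1*. With a common total the log2 fold changes were 0.04 for *Bnip3*, 0.08 for *Bnip3l* and 0.04 for *Bad*. With a common upper quartile they were 0.02 for *Bmf*, 0.08 for *Bnip3*, 0.11 for *Bnip3l*, 0.02 for *Mcl1* and 0.08 for *Bad*, and with quantile normalization 0.03 for *Bnip3l* and 0.02 for *Mcl1*. With the GC and length correction, with or without the replicate block, they were 0.30 for *Bnip3*, 0.16 for *Bnip3l*, 0.02 for *Bad*, -0.02 for *Tet1* and -0.06 for *Tet2*. When each line was left out, *Bmf* ran from -0.44 to 0.15, *Bnip3* from -0.08 to 0.03, *Bnip3l* from -0.12 to 0.07, *Bad* from -0.11 to 0.06 and *Tet2* from -0.02 to 0.26. *Tet1*, at 0.21, lost its call in 2 of the 6 fits without a line, at 0.14 to 0.27. The cause was not tested. By level per kb, the median transcript length kept 8 of 10 members in their *Ctrl* place and 4 of 10 in their *Tet iTKO* place.

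Lines with the same replicate number came from different embryos, and their deviations from the group means did not go together (correlations across genes of 0.001, -0.005 and -0.003 for numbers 1, 2 and 3), so the numbers do not pair the lines. A replicate block left the members at 2 higher and 2 lower, the lists at 8 and 8, and all genes at 1762 and 1980. Together with the GC and length correction it gave 2 and 2, 7 and 6, and 1356 and 1514.

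The depth behind the values limits genes that rest on few reads, among them *Bcl2*, *Bik*, *Bcl2l2*, *Bcl2l14*, *Casp8* and *Tet3*.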
